A study of Mus musculus with 12 samples.

Results

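Prdm14, Dppa3, Tcl1 and Zfp57 are 4 genes linked to pluripotency, the germ line and genomic imprinting, and their levels were followed in mouse embryonic stem cells that carry or lack functional Tcf3. Every probe set annotated to 1 of these symbols alone was taken, which gave 4 probe sets of the 45101 on the array, 1 per gene. The genes were picked with their levels in these arrays already known, so their levels and differences are given as a description, with the standard error (SE) of the difference but without a test. Of the genotypes, Tcf3+/+ is called wild type and Tcf3-/- knockout here; the labels name no cell line or clone. All grew on gelatin with Lif and serum and no feeders, and the Wnt3a groups also received 50 ng/ml recombinant Wnt3a for 24 h before RNA was isolated. Tcf3 is here the HMG-box protein now called Tcf7l1. Each of the 4 groups of genotype and medium had 3 arrays, 12 in all. The replicate numbers are not said to stand for separate cultures, so the spread measured here may be technical.

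Embryonic stem cells held with Lif and serum move between states that resemble earlier and later epiblast, and Tcf7l1 sits on many pluripotency genes as a repressor that Wnt and beta-catenin signalling relieves. Prdm14 is a PR-domain zinc finger protein needed for primordial germ cells, and in stem cells it holds down FGF receptor signalling and the de novo DNA methyltransferases. Tcl1 encodes a small co-activator of the kinase Akt that favours proliferation. Zfp57 encodes a KRAB zinc finger protein that binds methylated imprinting control regions and recruits Trim28 to keep the imprint. Dppa3, also called Stella or PGC7, encodes a maternal and germ cell protein that protects DNA methylation after fertilisation and marks a fraction of the cells in serum cultures.

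Promoter sequence shows what lies before the start of the members that were higher in knockout cells in control medium. RefSeq windows of assembly GRCm38.p6 were at hand for Tcl1 and Zfp57, 2 of the 4 genes. The 250 bases before the start are printed 5′ to 3′ on the strand of the gene, at chr12:105222738-105222987 (minus strand) for Tcl1 and, for the outermost of 3 Zfp57 starts, at chr17:37000913-37001162 (plus strand). Capitals mark a match to a motif searched on both strands.
Tcl1: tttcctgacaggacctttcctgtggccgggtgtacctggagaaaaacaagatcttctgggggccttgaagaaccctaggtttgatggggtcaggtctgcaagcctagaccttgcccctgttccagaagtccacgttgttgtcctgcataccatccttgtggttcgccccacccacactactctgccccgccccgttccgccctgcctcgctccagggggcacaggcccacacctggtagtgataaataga
Zfp57: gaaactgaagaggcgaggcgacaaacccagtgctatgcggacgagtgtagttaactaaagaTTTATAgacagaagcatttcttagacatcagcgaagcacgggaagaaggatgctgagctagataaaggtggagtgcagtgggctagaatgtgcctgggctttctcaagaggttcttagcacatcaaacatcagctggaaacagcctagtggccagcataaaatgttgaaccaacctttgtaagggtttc
The motifs were the Tcf/Lef core CTTTGA, the Esrrb-type nuclear receptor site AAGGTCA, the Zfp57 recognition hexamer TGCCGC and the TATA box TATAAA. The Tcl1 window held none of these letters, and the Zfp57 window held 1, a TATA box on the opposite strand whose first base lies 189 bases before the start. The windows at the other Zfp57 starts held none. Of 32851 windows of the same length, 13.8% held the Tcf/Lef core, 4.08% the nuclear receptor site, 8.68% the Zfp57 hexamer and 12.4% the TATA box. The windows were 57.6% and 46.4% G and C, against a median of 52.4% over all windows.

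Values are deposited intensities on the log2 scale. The targeted gene was lower but present in knockout cells: the brighter Tcf7l1 probe set read 10.77 to 10.90 in wild-type and 9.37 to 9.58 in knockout cells in control medium, and 10.21 to 10.50 and 8.89 to 9.22 with Wnt3a. The sources used here do not say which exons were deleted. All 6 stem cell markers checked lay above the floor of 5.56, the level used as background, in every group. Their summed intensity was not even, and its ranges did not overlap between any groups. Without Wnt3a it was 59029 to 62257 on wild-type arrays and 77004 to 79051 on knockout arrays. Among the Wnt3a arrays the ranges were 70267 to 75735 (wild type) and 79482 to 83249 (knockout). In control medium the summed intensity of 7 trophectoderm markers was 20223 to 33550 in wild-type and 1355 to 1814 in knockout cells. With Wnt3a it was 15886 to 19297 against 1342 to 1503. Elf5 lay below the floor in all groups and Gata3 in knockout groups. This sum mainly follows the keratin genes Krt8 and Krt18, whose wild-type control means were 13.66 and 13.55, where the next brightest marker, Krt7, read 9.36. Eomes ran the other way, with wild-type and knockout means of 7.73 and 8.12 without Wnt3a and 7.75 and 8.43 with it. The summed intensity of 7 primitive endoderm markers ran from 675 to 868 in wild-type and from 519 to 2471 in knockout cells in control medium, where knockout array 2 was highest. With Wnt3a this sum ran from 946 to 1242 in wild-type and from 1294 to 1488 in knockout cells. The dap spike-in, a bacterial RNA added during preparation, read 4.04 to 4.15 on the 6 control arrays and 11.07 to 11.33 on the 6 Wnt3a arrays, so medium and preparation cannot be told apart, and each Wnt3a difference below includes both. The actin 3′ minus 5′ difference, a sign of RNA quality, was 0.18 to 0.24 in wild-type and 0.31 to 0.41 in knockout cells in control medium, and 0.24 to 0.27 against 0.36 to 0.41 with Wnt3a. The part of these measures in the results below was not tested. In these cultures fewer cells with a transcript and less RNA per cell cannot be told apart.

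Prdm14 (Entrez gene 383491, chromosome 1) was lowest in wild-type cells in control medium and higher in each of the other groups. In wild-type cells in control medium the arrays read 7.35, 7.98 and 7.55. In knockout cells in that medium they read 9.43, 9.21 and 9.45. The arrays of the genotypes were far apart, by 1.74 ± 0.17 (SE) on the log2 scale or 3.33-fold. With Wnt3a the wild-type arrays read 8.48, 8.89 and 9.16, all above the wild-type control arrays, a difference of 1.22 ± 0.17 or 2.33-fold. With Wnt3a the knockout arrays read 8.84, 9.04 and 9.03, all below the knockout control arrays, a difference of -0.39 ± 0.17. In Wnt3a medium the genotypes overlapped, with means of 8.85 ± 0.35 for wild-type and 8.97 ± 0.11 for knockout cells (SD, n = 3 each) and a difference of 0.12 ± 0.17. That difference was -0.06 without wild-type Wnt3a array 1, 0.28 without array 3 of that group and 0.19 without knockout Wnt3a array 1. The gap between genotypes in Prdm14 was thus wide in control medium and within the spread of the arrays after Wnt3a.

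Tcl1 (Entrez gene 21432, chromosome 12) was higher in knockout than in wild-type cells in both media. Wild-type control arrays read 9.58, 10.12 and 9.86, and knockout control arrays 11.77, 11.81 and 11.58, a difference of 1.87 ± 0.14 or 3.65-fold. Wild-type arrays with Wnt3a read 10.48, 10.77 and 10.94, above all wild-type control arrays by 0.87 ± 0.14 on average, or 1.83-fold. They remained below every knockout array. Knockout arrays with Wnt3a read 11.66, 11.68 and 11.66 and lay within the range of the knockout control arrays, with a difference of -0.06 ± 0.14. Left-out knockout control arrays moved it between -0.13 and -0.01, and it was -0.15 after repeated quantile normalization and 0.01 with each array centred on its median. In Wnt3a medium knockout cells were 1.91-fold higher, by 0.94 ± 0.14. The knockout groups of Tcl1 thus overlapped, while both wild-type groups lay lower and apart from each other.

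Zfp57 (Entrez gene 22715, chromosome 17) was highest in knockout cells in control medium. Wild-type control arrays read 9.01, 9.31 and 9.23, and knockout control arrays 10.47, 10.34 and 10.35, a difference of 1.20 ± 0.11 or 2.30-fold. In wild-type cells with Wnt3a the arrays read 8.73, 8.96 and 9.21, which overlap the wild-type control arrays, with a difference of -0.22 ± 0.11. That value was -0.10 without wild-type Wnt3a array 1, -0.34 without array 3 of that group and -0.14 with each array centred on its median. In knockout cells with Wnt3a they read 9.47, 9.45 and 9.35, all below the knockout control arrays by 0.96 ± 0.11 on average, or 1.95-fold. The genotypes still did not overlap in Wnt3a medium, where knockout cells were higher by 0.46 ± 0.11 or 1.37-fold. Unlike Prdm14 and Tcl1, Zfp57 thus gave no separate higher level in wild-type cells with Wnt3a, and in knockout cells it was lower with Wnt3a.

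Dppa3 (Entrez gene 73708, chromosome 6) ran the other way between genotypes and was lower in knockout cells in both media. Wild-type control arrays read 9.70, 9.56 and 9.86, and knockout control arrays 9.00, 8.89 and 8.95, a difference of -0.76 ± 0.15, so that knockout cells were 1.69-fold lower. With Wnt3a the wild-type arrays read 10.51, 10.15 and 9.82, of which the lowest fell inside the range of the control arrays, with a difference of 0.46 ± 0.15 that was 0.28 without wild-type Wnt3a array 1. The knockout arrays with Wnt3a read 8.49, 8.29 and 8.10, all below the knockout control arrays, with a difference of -0.65 ± 0.15. In Wnt3a medium knockout cells were 3.64-fold lower, with a difference of -1.86 ± 0.15. The distance between genotypes was thus larger with Wnt3a for Dppa3, and smaller for Prdm14, Tcl1 and Zfp57.

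**Figure D1:**
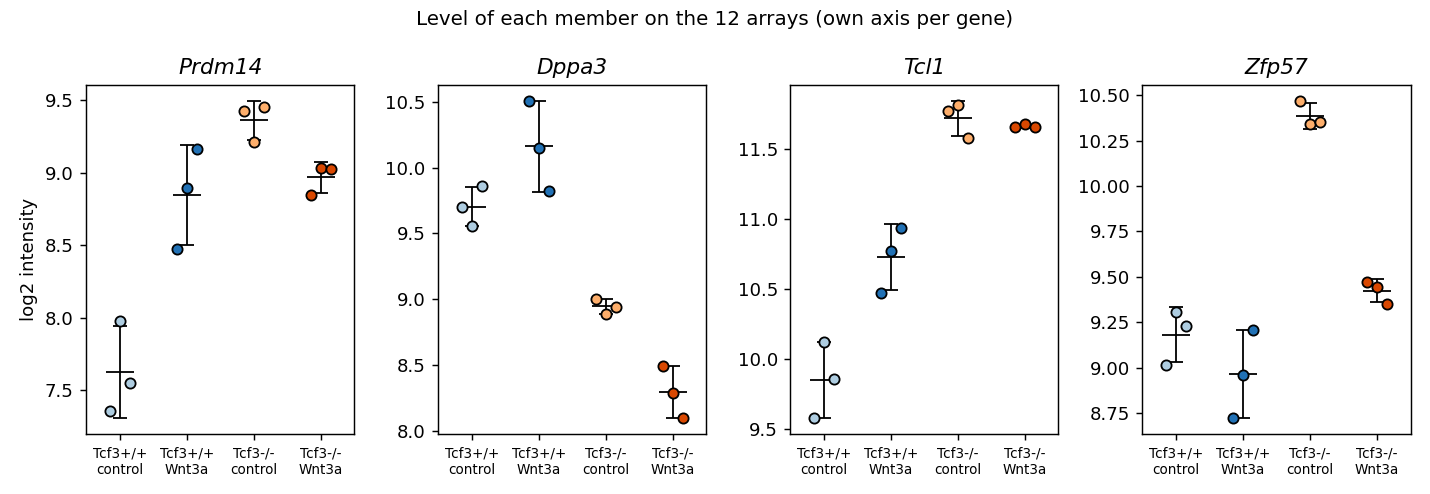
Log2 intensity of Prdm14, Dppa3, Tcl1 and Zfp57 (vertical axis, own range per gene) in the 4 groups of genotype and medium, with a point per array and the mean with its SD (n = 3 arrays). Wild-type control arrays of Prdm14 (7.35 to 7.98) and Tcl1 (9.58 to 10.12) lie below all other groups, knockout control arrays of Zfp57 (10.34 to 10.47) above all, and knockout arrays of Dppa3 below both wild-type groups.

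Ordered by group mean, Prdm14 and Tcl1 placed the groups alike, though not beyond the spread of the arrays, and Zfp57 and Dppa3 each placed them differently. For Prdm14 the order from low to high was wild type in control medium, wild type with Wnt3a, knockout with Wnt3a and knockout in control medium, and the middle groups overlapped. For Tcl1 the overlapping neighbours in this order were the knockout groups. The gap between overlapping groups was 0.12 for Prdm14 and 0.06 for Tcl1. The first turned sign without wild-type Wnt3a array 1, and the second with each array centred on its median. With Wnt3a, wild-type arrays overlapped the knockout arrays for Prdm14 but lay 0.94 below them on average for Tcl1. For Zfp57 the wild-type groups were lowest and overlapped, and knockout with Wnt3a and knockout in control medium followed apart from each other. For Dppa3 knockout with Wnt3a was lowest, then knockout in control medium, and the wild-type groups, which overlapped, were highest. Between wild-type cells with Wnt3a and knockout cells in control medium, the arrays of no member overlapped. Wild-type cells with Wnt3a were lower there by -0.52 ± 0.17 for Prdm14, -0.99 ± 0.14 for Tcl1 and -1.42 ± 0.11 for Zfp57, and higher by 1.21 ± 0.15 for Dppa3.

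In control medium 3 members were higher and 1 was lower in the knockout without overlap, where among the 13811 genes tested 26% were higher and 28.1% lower without overlap. In Wnt3a medium 2 were higher and 1 lower, against 20.3% and 22.3% of genes. With Wnt3a 2 members were higher and none lower in wild-type cells, against 24.5% and 28.3% of genes, and none was higher and 3 were lower in knockout cells, against 21.3% and 22.5%. Between wild-type cells with Wnt3a and knockout cells in control medium 1 was higher and 3 were lower, against 28.4% and 27.9%. These contrasts chose the members, so nothing is read from the counts. Comparisons that share a group of arrays are not independent, such as the knockout difference in control medium and the Wnt3a difference in wild-type cells, which share the wild-type control arrays.

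The Wnt3a difference in knockout minus that in wild-type cells lay below 0 for all 4 members. It was -1.61 ± 0.25 (SE) for Prdm14, -1.11 ± 0.21 for Dppa3, -0.93 ± 0.19 for Tcl1 and -0.75 ± 0.16 for Zfp57. The levels behind these values differ by gene. For Prdm14 and Dppa3 the mean was higher with Wnt3a in wild-type and lower in knockout cells, for Tcl1 the difference lay in wild-type cells alone beyond the spread, and for Zfp57 in knockout cells alone. In the limma fit all 4 were called lower, where 1.88% of genes were called lower and 2.2% higher, and nothing is read from this count either. Calls of this term depended on single arrays, with 151 to 952 over all genes when 1 array was left out. Whether the calls of the members hold without each array is not given here.

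**Figure D2:**
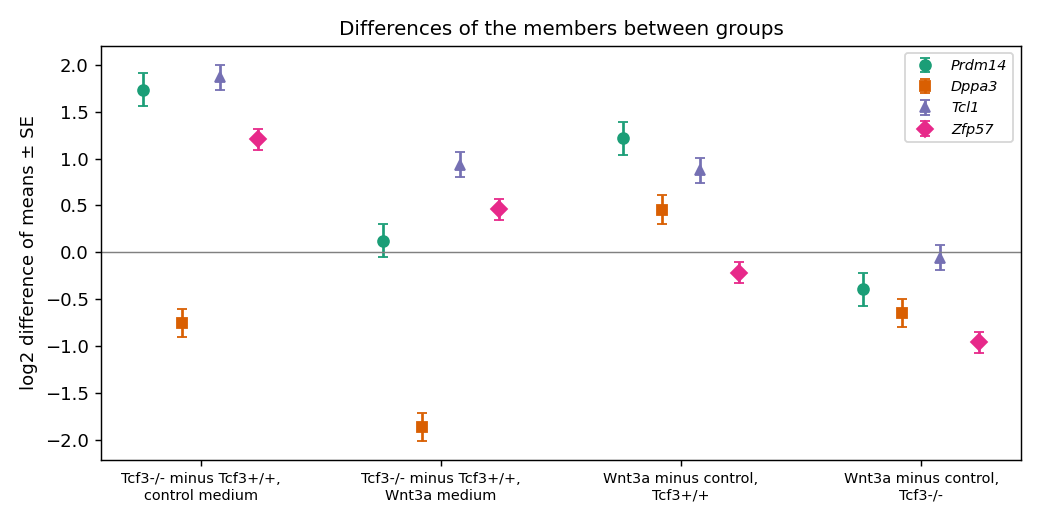
Difference of group means on the log2 scale (vertical axis, bars are the SE of the limma fit, n = 3 arrays per group) for the 4 members in the 4 pairwise comparisons. The knockout difference of Prdm14 goes from 1.74 in control medium to 0.12 with Wnt3a, and that of Dppa3 from -0.76 to -1.86.

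Within the wild-type groups Prdm14, Tcl1 and Zfp57 deviated from their group means in the same direction on the arrays that lay farthest out. In wild-type cells in control medium, array 1 lay below the group mean for Prdm14 (-0.27), Tcl1 (-0.27) and Zfp57 (-0.17), and array 2 above it (0.35, 0.27 and 0.12). In wild-type cells with Wnt3a, array 1 was low in these genes (-0.37, -0.25 and -0.24) and array 3 high (0.32, 0.21 and 0.24), whereas Dppa3 was 0.35 above its group mean on array 1 and -0.34 on array 3. The same arrays differed across all genes: on the first principal component, which held 64.1% of the variance, wild-type control arrays 1 to 3 lay at -46.5, -33.3 and -40.7 and wild-type Wnt3a arrays at -21.9, -13.4 and -4.6, with knockout arrays between 21.7 and 31.7. The summed trophectoderm markers were 33550, 20223 and 26348 on wild-type control arrays 1 to 3 and 19297, 17684 and 15886 on wild-type Wnt3a arrays 1 to 3. Over the 12 deviations from group means, which share array and preparation, Pearson's r was 0.81 for Prdm14 with Tcl1, 0.84 for Prdm14 with Zfp57 and 0.86 for Tcl1 with Zfp57. With Dppa3 it was -0.75 for Prdm14, -0.62 for Tcl1 and -0.57 for Zfp57. In knockout cells the members deviated by at most 0.20 in size, and there Prdm14 and Tcl1 went opposite ways on control array 2 (-0.15 and 0.09) and control array 3 (0.09 and -0.14).

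**Figure D3:**
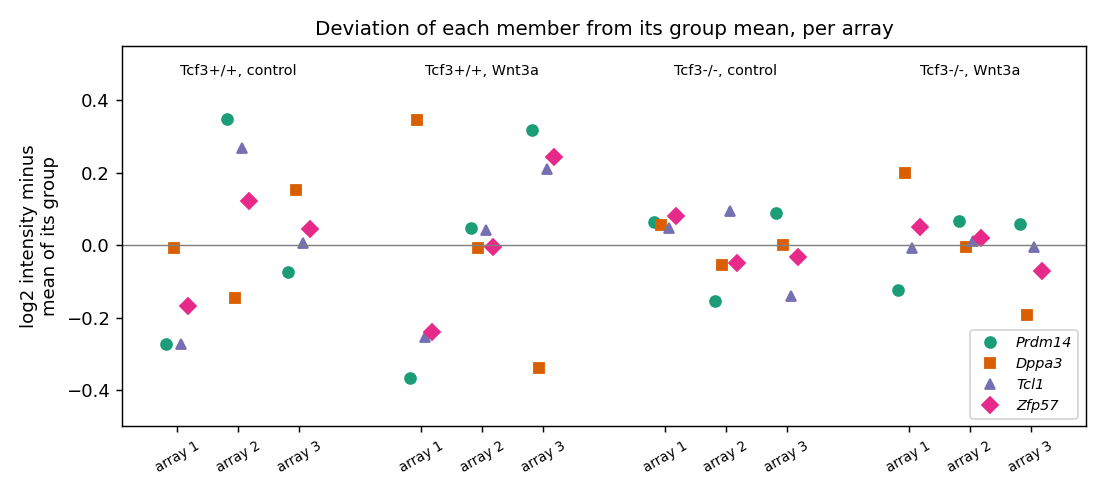
Log2 intensity of each member minus the mean of its group (vertical axis) on each of the 12 arrays, grouped by genotype and medium. In wild-type cells with Wnt3a, Prdm14, Tcl1 and Zfp57 lie low on array 1 and high on array 3, and Dppa3 lies the other way (0.35 and -0.34).

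For each member, the 5 genes most like it over the 12 arrays were taken from 1394 tested genes whose group means span at least 1 on the log2 scale, by Pearson's r over arrays that share groups, medium and preparation. Likeness to a member fixes their differences too, so these are given as a description, without a test. The gene most like Prdm14 was Nr0b1 (r = 0.983), which encodes Dax1, a nuclear receptor of the pluripotency network, followed by the myosin gene Myo1f (0.979), the chromatin remodelling subunit gene Smarcd3 (0.961), Fam81a (0.955) and Mical1 (0.954). Nr0b1 was 1.37 ± 0.18 (SE) higher in knockout cells in control medium and 1.05 higher with Wnt3a in wild-type cells. In knockout cells its Wnt3a difference was -0.11. Closest to Tcl1 were the mannosidase gene Manba (0.995), Cdyl2 (0.993), the meiotic gene Hormad1 (0.992), Tet2 (0.990), which encodes a dioxygenase that oxidises methylcytosine, and Ddx58 (0.989), which encodes the RNA sensor RIG-I. Tet2 was 1.41 higher in knockout cells in control medium, 0.70 higher in Wnt3a medium, and 0.68 higher with Wnt3a in wild-type cells.

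Closest to Zfp57 were Hsd17b14 (0.983), Aoah (0.980), Gpa33 (0.973), the egg coat gene Zp3 (0.971) and the kinase gene Sgk2 (0.971). Zp3 was 2.21 ± 0.18 higher in knockout cells in control medium, and its Wnt3a difference was -1.23 in knockout and -0.21 in wild-type cells. Closest to Dppa3 were the thioesterase gene Acot1 (0.948), Nsmaf (0.933), Zfp869 (0.924), the myosin light chain gene Myl9 (0.920) and the cardiac actin gene Actc1 (0.920). In control medium the knockout difference was -2.96 for Myl9 and -2.72 for Actc1. Of the other members, Tcl1 came 40th in likeness to Prdm14 (r = 0.917), while Prdm14 came 152nd in likeness to Tcl1. Zfp57 had an r of 0.60 with Prdm14 and 0.67 with Tcl1. Dppa3 had an r of -0.46 with Prdm14, -0.73 with Tcl1 and -0.54 with Zfp57.

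**Figure D4:**
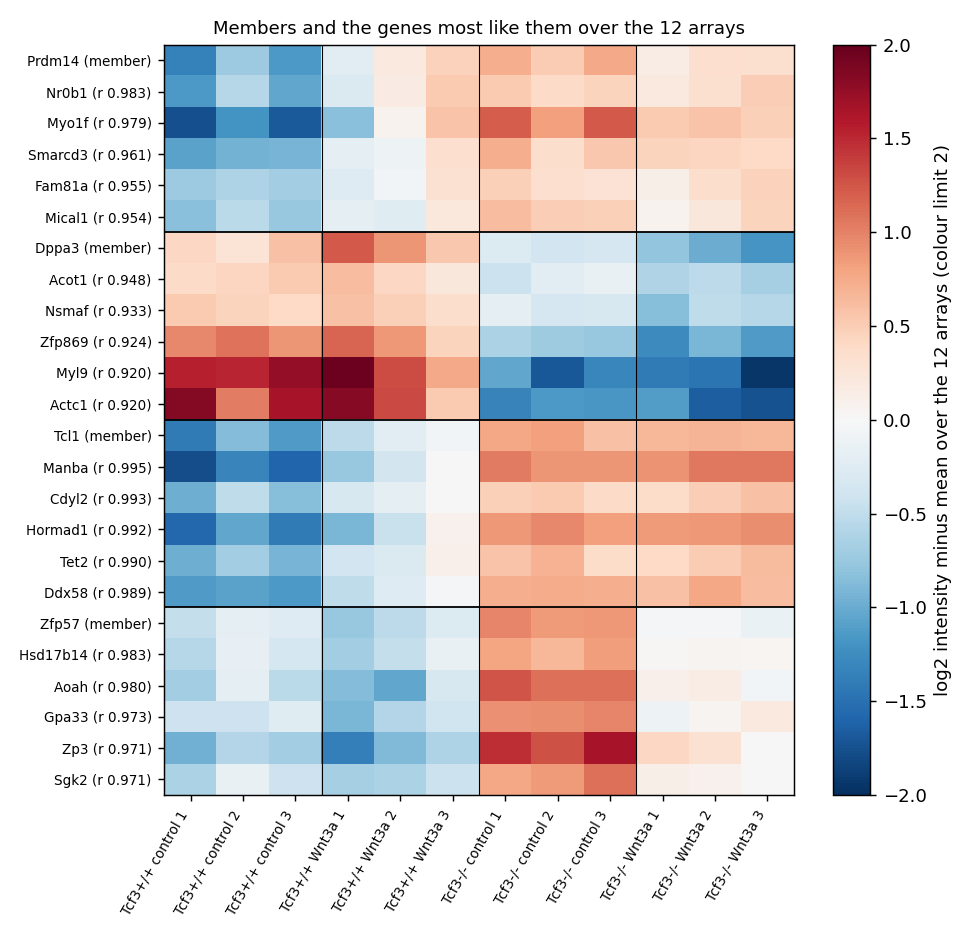
Log2 intensity minus the gene's mean over the 12 arrays (colour, limits at 2 either way) for each member and the 5 genes with the highest Pearson's r with it (in brackets), arrays in columns by group. Wild-type control arrays are lowest for the Prdm14 and Tcl1 blocks, knockout control arrays highest for the Zfp57 block, and knockout arrays lowest for the Dppa3 block.

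The neighbours of the members in the RefSeq gene order were compared next, taking the 3 nearest genes on each side where the array has them. Dppa3 lies in a cluster of pluripotency genes. Its neighbour Gdf3, a TGF-beta family ligand gene, read 10.71 to 11.37 in wild-type and 11.29 to 11.41 in knockout cells in control medium, a difference of 0.33 ± 0.12 (limma adjusted p = 0.0523, and 0.000732 when wild-type control array 2 is left out). Apobec1, the cytidine deaminase gene beyond it, rose in knockout cells by 0.45 (control medium) and 0.79 (Wnt3a medium), with limma adjusted p = 0.00645 and 0.000388, the opposite direction to Dppa3. Nanog, which lies further along on the other side and was chosen after its values were seen, rose by 0.99 in knockout cells in control medium and by 0.89 with Wnt3a in wild-type cells (limma adjusted p = 1.05e-06 and 9.07e-06).

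Beside Tcl1 lie its paralogs. Tcl1b4 had a knockout difference of 0.01 ± 0.08 in control medium (limma adjusted p = 0.935) and Tcl1b3 one of -0.01 ± 0.09 (0.962), where Tcl1 differed by 1.87. These are related genes, and a probe set may read more than 1 of them, which the _x_at suffix flags for that of Tcl1b3 only. Tcl1b3 rose with Wnt3a by 0.24 in wild-type and 0.38 in knockout cells (limma adjusted p = 0.0459 and 0.00909). On the other side of Tcl1 the non-coding RNA gene Tunar rose by 0.53 in knockout cells in control medium (0.00788). Beside Prdm14, Ncoa2, a nuclear receptor co-activator gene, had a knockout difference of 0.00 (0.989) in control medium, and Slco5a1 fell by 1.23 (0.000134). Beside Zfp57, 2410137M14Rik rose by 1.88 in control and 1.69 in Wnt3a medium (7.47e-07 and 5.61e-06), and Gabbr1, which encodes a GABA receptor subunit, rose by 0.66 in control medium (0.0016).

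The genes around the members in the pluripotency network, the germ line and methylation control were read from 8 lists, without the members themselves. These lists were chosen with earlier results of these data known. Their counts, medians and adjusted p-values are therefore a description and give no independent support. In control medium, 19.9% of the 13811 genes tested were called higher and 22.3% lower in knockout cells by limma (adjusted p under 0.05). With Wnt3a in wild-type cells 18.9% were called higher and 22.6% lower, with Wnt3a in knockout cells 13.3% and 14.7%, and in knockout against wild-type cells in Wnt3a medium 13.2% and 14.7%. Of the calls 45.6% were higher with Wnt3a in wild-type and 47.5% in knockout cells, and after centring each array on its median 61.5% and 66.3%. The median difference over all genes was 0.01, -0.02, -0.01 and 0.01 in the same order of comparisons.

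Of 22 naive pluripotency genes tested, 18 rose in knockout cells in control medium and none fell (median difference 0.78). With Wnt3a 16 rose and none fell in wild-type cells (median 0.78), and 5 rose and 1 fell in knockout cells (median 0.12). In Wnt3a medium 8 rose and 1 fell in knockout cells (median 0.17). Tbx3, a T-box factor gene, rose by 1.77 with Wnt3a in wild-type cells, Tfcp2l1 by 1.75 and Klf4 by 1.62 (limma adjusted p = 2.21e-05, 1.88e-06 and 1.88e-06). In knockout cells Klf4 rose by 0.47 with Wnt3a (0.00719), while Tbx3 (0.13) and Tfcp2l1 (0.15) did not pass (0.591 and 0.363); Tfcp2l1 passed with the mean of its probe sets (0.0115). The summed trophectoderm markers (20223 to 33550 against 1355 to 1814) and the actin 3′ minus 5′ difference moved with genotype here too.

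In the primordial germ cell programme, 9 of 21 genes rose and 5 fell in knockout cells in control medium (median 0.08), and 8 rose and 3 fell with Wnt3a in wild-type cells (median 0.24). With Wnt3a in knockout cells 6 rose and 4 fell (median 0.03), and in Wnt3a medium 5 rose and 7 fell in knockout cells (median 0.08). The summed intensity of 6 late germ cell markers, 4 of which are also in this list, was 2641 to 3180 in wild-type and 3565 to 3696 in knockout cells in control medium, and 3693 to 4159 and 4325 to 5371 with Wnt3a. It was higher in the knockout in each medium and with Wnt3a in each genotype, without overlap, and its part in the counts was not tested. Its markers did not move together. Between genotypes the means of Sycp3, Stra8, Mael and Dazl were higher in the knockout in both media. Of these only Dazl lay apart in both media. The arrays of Stra8 and Mael overlapped in both, with Mael means of 8.42 and 8.45 in control medium, and those of Sycp3 overlapped with Wnt3a. Ddx4 was lower in the knockout, with means of 9.3 against 8.4 in control medium and 9.4 against 8.8 with Wnt3a. Piwil2 means were lower too, though its control arrays overlapped. Stra8 ran from 8.51 to 10.68 among the knockout arrays with Wnt3a. The receptor gene Kit rose by 1.45 in knockout cells in control medium and by 1.98 with Wnt3a in wild-type cells (limma adjusted p = 5.97e-07 and 4.23e-07). The alkaline phosphatase gene Alpl rose by 1.03 and 1.08 (1.74e-06 and 6e-06). The RNA-binding protein gene Dazl rose in knockout cells by 2.15 (control medium) and 1.92 (Wnt3a medium), and with Wnt3a by 1.14 in wild-type and 0.91 in knockout cells (1.13e-06, 9.24e-06, 0.000233 and 0.00187). Prdm1, which encodes the germ cell factor Blimp1, rose by 0.68 in knockout cells in control medium and fell with Wnt3a by 0.58 in wild-type and 0.82 in knockout cells (0.00379, 0.0112 and 0.00311). The homeobox gene Rhox6 fell by 1.58 in knockout cells in control medium (2.27e-05).

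DNA methylation enzymes and readers went both ways. Of 20 genes 8 rose and 6 fell in knockout cells in control medium (median 0.17), 4 rose and 4 fell with Wnt3a in wild-type cells (median 0.09), 1 rose and 2 fell with Wnt3a in knockout cells (median -0.03), and 4 rose and 4 fell in knockout against wild-type cells in Wnt3a medium (median 0.02). Dnmt3b, a de novo methyltransferase gene, fell by 0.84 in knockout cells in control medium, by 0.79 in Wnt3a medium, and with Wnt3a by 0.51 in wild-type and 0.46 in knockout cells (limma adjusted p = 1.24e-05, 6.64e-05, 0.00081 and 0.00303). The last call was lost with the mean of its 2 probe sets (0.112). Dnmt3l, its catalytically inactive partner, rose by 0.68 in control and 0.76 in Wnt3a medium (0.000209 and 0.000251). Tet1 rose by 0.46 with Wnt3a in wild-type cells (0.00444), and the stress-response gene Gadd45b fell by 0.94 in knockout cells in control medium (0.00253). The 8 calls in Wnt3a medium were 5 without wild-type Wnt3a array 1 or 2 or knockout Wnt3a array 2, and the 3 calls of Wnt3a in knockout cells were 6 without knockout Wnt3a array 1.

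Of 12 FGF receptors and lineage genes that Prdm14 is known to repress, 1 rose and 4 fell in knockout cells in control medium (median 0.00), where Prdm14 was higher. With Wnt3a none rose and 2 fell in wild-type cells (median 0.07) and in knockout cells (median -0.07), and in Wnt3a medium 1 was higher and 4 lower among knockout arrays (median -0.06). The receptor gene Fgfr2 fell by 1.16 in control and 1.25 in Wnt3a medium (limma adjusted p = 5.14e-05 and 9.33e-05), the trophectoderm factor gene Cdx2 by 1.01 and 0.98 (0.00049 and 0.00138), and Dnmt3b belongs to the list as well. Cdx2 is also 1 of the 7 trophectoderm markers, whose sum mainly follows Krt8 and Krt18 and was higher in wild-type cells in both media. The epiblast factor gene Otx2 fell with Wnt3a by 1.95 in wild-type and 1.57 in knockout cells (0.000722 and 0.00472). In control medium the 5 calls were 8 without knockout control array 1. The 2 calls of Wnt3a in wild-type cells were 4 without knockout control array 1 or 2, and those in knockout cells were 5 without knockout control array 2, 4 without wild-type control array 1 and 1 with the mean of all probe sets.

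Zfp57 acts through Trim28 and its partners. Of 15 KRAB zinc finger co-repressor genes 5 rose in knockout cells in control medium and none fell (median 0.11), and 5 rose and none fell with Wnt3a in wild-type cells (median 0.16). With Wnt3a in knockout cells 1 rose and 1 fell (median 0.02), and in Wnt3a medium none was higher and 2 fell in knockout cells (median -0.04). Trim28, the scaffold itself, fell by 0.23 with Wnt3a in knockout cells (limma adjusted p = 0.00901) and had a knockout difference of 0.06 in control medium (0.446). Wild-type arrays of Trim28 were lower with Wnt3a too, without a call (13.98 to 14.06 in control medium, 13.89 to 13.91 with Wnt3a). Morc3 rose by 0.40 in knockout cells in control medium (0.000377), and Chd4, a remodeller subunit gene, by 0.39 with Wnt3a in wild-type cells (0.000289). Chd4 was called higher with Wnt3a in knockout cells as well, with means of 10.89 in control medium and 11.12 with Wnt3a. The 5 calls in control medium were 2 without knockout control array 1 and 3 without wild-type control array 1 or 3 or with the mean of all probe sets. The 5 calls of Wnt3a in wild-type cells were 3 without wild-type control array 1 or wild-type Wnt3a array 2, and 8 with the mean of all probe sets. The 2 calls in Wnt3a medium were 0 without wild-type Wnt3a array 2, and 1 without wild-type Wnt3a array 1 or 3 or knockout Wnt3a array 2 or 3. The 2 calls of Wnt3a in knockout cells were 7 when probe sets were averaged and 4 after repeated quantile normalization.

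Imprinted genes were read because Zfp57 binds imprinting control regions, but their dependence on Zfp57 was not tested. Of 30 such genes 7 rose and 15 fell in knockout cells in control medium (median -0.23), and 5 rose and 10 fell with Wnt3a in wild-type cells (median -0.16). With Wnt3a in knockout cells 5 rose and 5 fell (median -0.01), which became 5 calls in all without knockout control array 3, and in Wnt3a medium 7 rose and 11 fell in knockout cells (median -0.06). The growth factor gene Igf2 fell by 2.82 in knockout cells in control medium and 3.03 in Wnt3a medium, and the cell cycle inhibitor gene Cdkn1c by 2.46 and 2.39 (limma adjusted p = 9.31e-07, 2.56e-06, 5.87e-07 and 2.68e-06). The maternally expressed non-coding RNA gene Mirg rose by 1.09 and 1.51 (6.06e-06 and 2.68e-06). The zinc finger gene Plagl1 rose with Wnt3a by 1.52 in wild-type and 1.61 in knockout cells, Igf2r by 1.20 and 0.89, and Rian fell by 1.68 and 1.59 (limma adjusted p = 5.02e-05, 0.000109, 8.32e-07, 1.3e-05, 0.000765 and 0.00214). The dap spike-in differed between these media as well (4.04 to 4.15 against 11.07 to 11.33).

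In the Tcl1 family and Akt pathway, 5 of 24 genes rose and 5 fell in knockout cells in control medium (median 0.00), and the same numbers rose and fell with Wnt3a in wild-type cells (median 0.00). With Wnt3a in knockout cells 4 rose and 3 fell (median 0.00), and in Wnt3a medium 1 was higher and 5 lower in knockout cells (median 0.04). Akt1, the kinase that Tcl1 binds, fell in knockout cells by 1.18 (control medium) and 0.62 (Wnt3a medium), with limma adjusted p = 5.83e-07 and 0.000156. Inpp5d, which encodes the lipid phosphatase SHIP1, rose by 1.05 and 0.68 (0.000232 and 0.00795). Mtcp1, a gene of the Tcl1 family, fell by 0.85 with Wnt3a in wild-type cells (5.54e-05). The 10 calls in control medium and the 10 of Wnt3a in wild-type cells were 6 without wild-type control array 3, and the 7 of Wnt3a in knockout cells were 3 without knockout Wnt3a array 2.

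Of 10 other PR-domain genes 3 rose in knockout cells in control medium and none fell (median 0.04), where Prdm14 differed by 1.74, and the largest of these was Prdm1. With Wnt3a 1 rose and 3 fell in wild-type cells (median -0.05) and in knockout cells (median -0.09), and in Wnt3a medium 1 was higher and none lower in knockout cells (median -0.02). The 3 calls in control medium were 1 without array 1 or 3 of either control group or knockout Wnt3a array 2 or 3, and with the mean of all probe sets. The 4 calls of Wnt3a in wild-type cells were 2 without wild-type control array 3 or wild-type Wnt3a array 1. The 1 call in Wnt3a medium was 2 without wild-type control array 1 or knockout Wnt3a array 1, and 0 without array 3 of either control group, wild-type Wnt3a array 1 or 2 or knockout Wnt3a array 2 or 3.

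**Figure D5:**
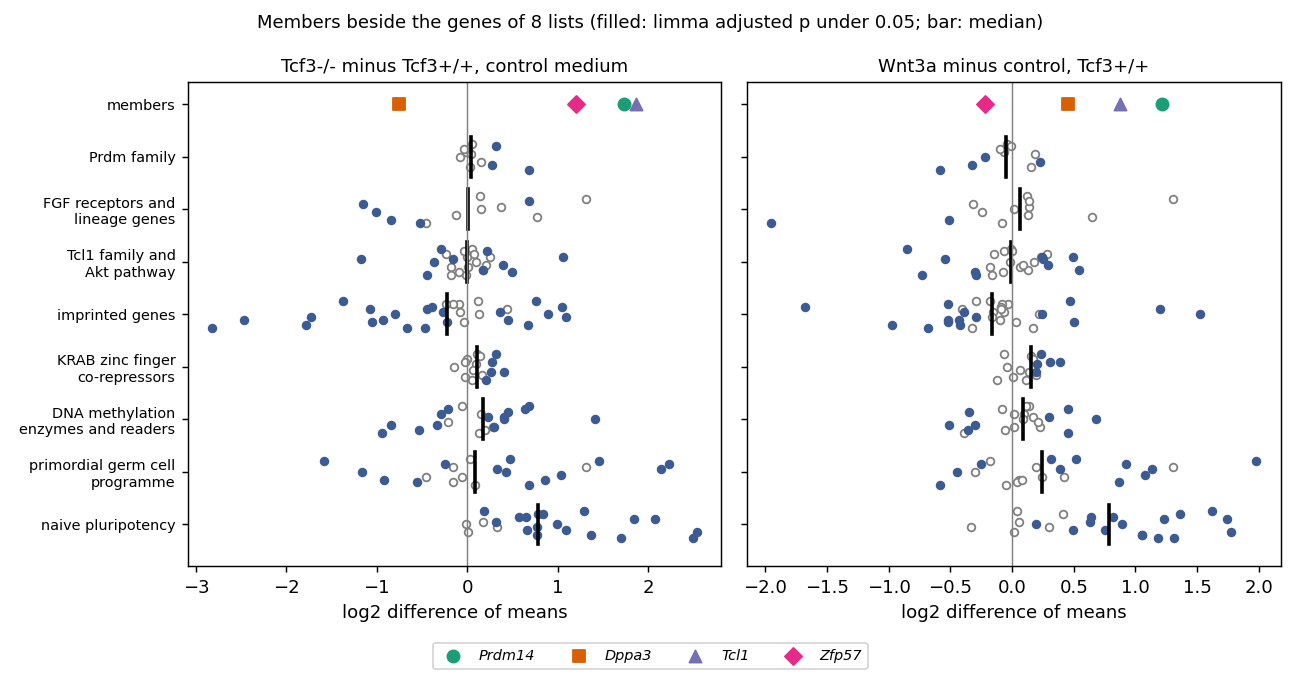
Log2 difference of group means (horizontal axis) for each tested gene of the 8 lists and for the 4 members, in knockout against wild-type cells in control medium (left) and with Wnt3a in wild-type cells (right). Filled points passed limma at an adjusted p under 0.05, bars are list medians (0.78 in both panels for naive pluripotency), and the members are a description.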

How the data were processed

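RNA of 12 embryonic stem cell samples was hybridised to Affymetrix arrays, 3 per group of genotype and medium. The authors deposited 1 table of intensity values on a linear scale; the submitters' processing notes name RMA, with no version or settings. Normalization between arrays removes shifts in total RNA. Log2 was taken with no offset. Names came from GEO's platform annotation (34945 with 1 symbol, 932 with several, 9160 unnamed, 64 controls), and a gene was read from its brightest probe set. Genes above the 40th percentile (5.56) on at least 3 arrays were kept, 13811 of 18193, all 4 members among them. The limma package (3.58.1, R 4.3.3; lmFit, eBayes) gave group means over all arrays, two-sided, with Benjamini-Hochberg adjustment over all genes tested. The number of arrays limits the precision. The fit was tested on simulated data. The members and lists were chosen with earlier results of these data known. Named genes were the members, the 3 largest calls and the largest other difference per list and comparison, the 5 most alike genes per member, passing over RIKEN and predicted names, the 3 nearest neighbours per side and Tcf7l1; part of them is printed. The samples share only replicate numbers, so no block was used. Alternatives are given in the closing section. No array was left out, and no 2 arrays were identical.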

Additional observations from a re-analysis of the deposited data

Results flagged for a closer look

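The Wnt3a difference differed between genotypes for all 4 members, by the interaction term of the limma fit. The knockout minus wild-type value was -1.61 for Prdm14, -1.11 for Dppa3, -0.931 for Tcl1 and -0.747 for Zfp57. These values helped choose the members and are a description. For Dppa3 every wild-type array with Wnt3a lay above the mean of the wild-type control arrays and every knockout array with Wnt3a below that of the knockout control arrays.

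Of 88 other genes examined, 15 passed the same term, where 1.88% of the 13811 genes tested were called lower and 2.2% higher. The term was -2.04 for Myo1f, -1.64 for Tbx3, -1.6 for Tfcp2l1, -1.41 for Kit, -1.16 for Nr0b1, -1.15 for Klf4 and -1.12 for Manba. It was -1.11 for Smarcd3, -1.02 for Zp3, -0.922 for Ddx58, -0.914 for Mical1, -0.868 for Alpl, -0.741 for Fam81a and -0.407 for Ehmt2. Only for Akt1 among these 15 was it above 0, at 0.561. Of the 15 calls, 7 (Tbx3, Tfcp2l1, Kit, Klf4, Smarcd3, Ddx58 and Alpl) held without each array in turn. The other 8 were lost in 4 to 9 of the 12 fits that leave out 1 array. Myo1f, Nr0b1, Smarcd3, Mical1 and Fam81a (like Prdm14), Manba and Ddx58 (like Tcl1) and Zp3 (like Zfp57) were picked for their likeness to members with this pattern and give it no independent support. Tbx3, Tfcp2l1, Kit, Klf4, Alpl, Ehmt2 and Akt1 were named as the largest calls of a list in comparisons that enter this term. That choice favours their passing, so nothing is read from the count of 15.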

How the results depend on the processing

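All 340 values of the member differences under the alternatives moved by less than the spread between arrays. The sign turned in 2 of them, the Prdm14 knockout difference in Wnt3a medium (0.12) to -0.06 without wild-type Wnt3a array 1 and the Tcl1 Wnt3a difference in knockout cells (-0.06) to 0.0068 with each array centred on its median. Part of the 340 values could not move. A pairwise difference of group means stays the same when an array of another group is left out. Averaging probe sets changes nothing for a gene with 1 probe set. Nothing is therefore read from the count of 340. With 1 array left out, the knockout difference in control medium ranged from 1.60 to 1.91 for Prdm14, 1.73 to 2.00 for Tcl1, 1.12 to 1.27 for Zfp57 and -0.83 to -0.68 for Dppa3. Called genes in the interaction (563) ranged from 151 without wild-type control array 3 to 952 without wild-type Wnt3a array 1 and moved by over 1.5 times without 10 of the 12 arrays, while the Wnt3a calls in knockout cells (3872) ranged from 2393 without knockout control array 3 to 4011. Testing all probe sets gave 9562 calls for the knockout effect in control medium (5824 genes), 6286 in Wnt3a medium (3863), 10788 for Wnt3a in wild-type cells (5733), 7705 in knockout cells (3872) and 1015 for the interaction, as more features are tested.

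Same-numbered arrays correlated between -0.26 and 0.24 in their deviations, and 4 of 12 arrays correlated best with their own number. With the replicate block, calls were 5600 and 3622 for the knockout effect in control and Wnt3a medium, 5474 and 3553 for Wnt3a in wild-type and knockout cells and 394 for the interaction.

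List counts of calls, with 1 array left out, ranged as follows. Methylation genes ranged from 5 to 9 in Wnt3a medium and from 2 to 6 for Wnt3a in knockout cells. The FGF receptor list ranged from 5 to 8 in control medium, from 2 to 4 for Wnt3a in wild-type cells and from 2 to 5 in knockout cells. Imprinted genes ranged from 5 to 11 for Wnt3a in knockout cells. KRAB co-repressors ranged from 2 to 5 in control medium, from 0 to 2 in Wnt3a medium and from 3 to 5 for Wnt3a in wild-type cells. PR-domain genes ranged from 1 to 3 in control medium, from 0 to 2 in Wnt3a medium and from 2 to 4 for Wnt3a in wild-type cells. The Akt list ranged from 6 to 11 in control medium, from 6 to 10 for Wnt3a in wild-type cells and from 3 to 7 in knockout cells. The mean of all probe sets gave 1 for the FGF receptor list with Wnt3a in knockout cells, 1 for PR-domain genes in control medium, and for KRAB co-repressors 3 in control medium, 8 with Wnt3a in wild-type and 7 in knockout cells. Repeated quantile normalization gave 5 for methylation genes and 4 for KRAB co-repressors with Wnt3a in knockout cells, and in Wnt3a medium 1 for KRAB co-repressors and 2 for PR-domain genes. PR-domain genes in Wnt3a medium also gave 2 with the replicate block and with the stricter filter. The cause was not tested. Each member rests on 1 probe set, and the arrays give no detection calls.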
